A study of Mus musculus with 25 samples.

Results

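Blood-forming stem cells carrying the JAK2 mutant construct and lacking the interleukin-1 receptor Il1r1 were compared with stem cells of the group labelled wild type, 2 weeks after tamoxifen. Both groups have 4 libraries, taken by genotype and time in their labels, so 8 of the 25 libraries of the series carry the comparison. The mutant group, called Il1r1KO below, is labelled SclCre, mutant JAK2 (VF), IL-1R1-/- and GFP. The control group, called WT, is labelled SclCre and GFP. At the same time, 4 libraries of VF (SclCre, mutant JAK2 and GFP) and 4 of Il1bKO (the same with IL-1b-/-) were used for values side by side. In every group, donor marrow was engrafted into recipient mice, tamoxifen was given after 16 weeks, and stem cells sorted as Lin−Sca1+cKit+CD48−CD150+ were taken 2 weeks after tamoxifen began. Each library is bulk polyA RNA amplified from few sorted cells. In such libraries, fewer cells of a type and less RNA per cell cannot be told apart. The labels tie no library to a named donor or recipient, so p-values measure the spread between these samples.

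JAK2 is the kinase behind the erythropoietin receptor and related cytokine receptors, and its activating mutation drives myeloproliferative neoplasms, in which red cells and platelets are overproduced. Active JAK2 phosphorylates STAT5, which switches on genes such as Socs2, Cish and Pim1, and the first pair of these feeds back on the receptor. IL-1β signals through IL1R1 and its partner IL1RAP to NF-kB, and can push stem cells towards myeloid output. SclCre is a tamoxifen-activated Cre driven from regulatory sequence of Scl (also called Tal1), which is active in blood stem cells and in some of their progeny.

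Il1r1KO libraries had totals of 25615916 to 31238212 counts and 13225 to 13484 genes detected, and WT libraries 26722287 to 28799494 counts and 13238 to 13433 genes detected. Stem cell markers were present in both groups: Procr, which is not part of the sort, averaged 98.0 ± 28.8 CPM in Il1r1KO and 119 ± 52.5 CPM in WT (SD, n = 4 each). Of the genes selected for in the sort, Slamf1, which encodes CD150, averaged 122 ± 52.7 CPM in Il1r1KO and 97.8 ± 36.2 CPM in WT. Ly6a, which encodes Sca1, averaged 188 ± 47.8 CPM in Il1r1KO and 150 ± 32.5 CPM in WT. Kit averaged 688 ± 61.3 CPM in Il1r1KO and 1051 ± 164 CPM in WT, without overlap of the groups. Cd48, selected against in the sort, stood at 2.84 ± 2.11 CPM in Il1r1KO and 1.49 ± 1.25 CPM in WT. CPM here are counts scaled to a common library total after TMM normalisation. The WT libraries were not alike: WT 3 had 2.84 CPM of the Y-linked Kdm5d, against 45.4 to 50.1 CPM in the other WT libraries and 31.3 to 53.2 CPM in Il1r1KO. Other Y-linked genes were lower in WT 3 by less. Ddx3y had 46.5 CPM in WT 3 and 123 to 190 CPM in the other WT libraries. Uty had 23.8 CPM against 50.8 to 77.6 CPM, and Eif2s3y had 47.0 CPM against 93.3 to 156 CPM. WT 1 and 2 also differed from WT 3 and 4 in pEGFP and Mid1, as described below, so results are given with and without each pair where that changes them.

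The constructs and the deleted gene were examined first. Human JAK2 part 1 had 198, 178, 218 and 189 CPM in Il1r1KO libraries, against 0.255, 0.0346, 0.0729 and 0.733 CPM in WT libraries. Human JAK2 part 2 had 103.9, 103.8, 107 and 115 CPM in Il1r1KO libraries, against 0.182, 0.104, 0 and 0.0733 CPM in WT libraries. CreERT2 had 453, 595, 321 and 455 CPM in Il1r1KO libraries, while WT libraries had 0, 0, 1 and 0 reads. All 4 Il1r1KO libraries therefore carried the mutant construct at high level, and the WT libraries held next to no Cre reads although SclCre is in their label. For each of these sequences, an exact two-sided permutation test of 4 against 4 libraries gave p = 0.0286, the smallest the design allows, and 0.0381 after Benjamini-Hochberg adjustment over 4 sequences. The reporter pEGFP had 868, 897, 972 and 937 CPM in Il1r1KO libraries, against 998, 518, 3.03 and 49.3 CPM in WT libraries. WT 1 lay above every Il1r1KO library and WT 3 and 4 far below, and the exact permutation p was 0.143.

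The 3 mutant groups did not carry the constructs at one level. JAK2 part 1 averaged 196 ± 16.9 CPM in Il1r1KO, 116 ± 13.3 CPM in VF and 113 ± 11.1 CPM in Il1bKO, and pEGFP averaged 919 ± 45.6 CPM in Il1r1KO, 472 ± 7.78 CPM in VF and 471 ± 20.1 CPM in Il1bKO (SD, n = 4 each). JAK2 part 2 averaged 108 ± 5.18 CPM in Il1r1KO, 46.4 ± 7.22 CPM in VF and 63.9 ± 6.98 CPM in Il1bKO. The 4 Il1r1KO libraries lay above all 8 VF and Il1bKO libraries in these 3 sequences. CreERT2 did not follow that order: it averaged 456 ± 112 CPM in Il1r1KO, 287 ± 34.5 CPM in VF and 539 ± 19.6 CPM in Il1bKO, and the Il1r1KO libraries, at 321 to 595 CPM, overlapped those of Il1bKO, at 527 to 568 CPM. This unequal construct level stands beside every difference of Il1r1KO from the other mutants described below, and its part in them was not tested. Between Il1r1KO and WT, the JAK2 construct, CreERT2 and the Il1r1 label all differ together. Their parts in the differences from WT cannot be told apart in this comparison.

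**Figure D1:**
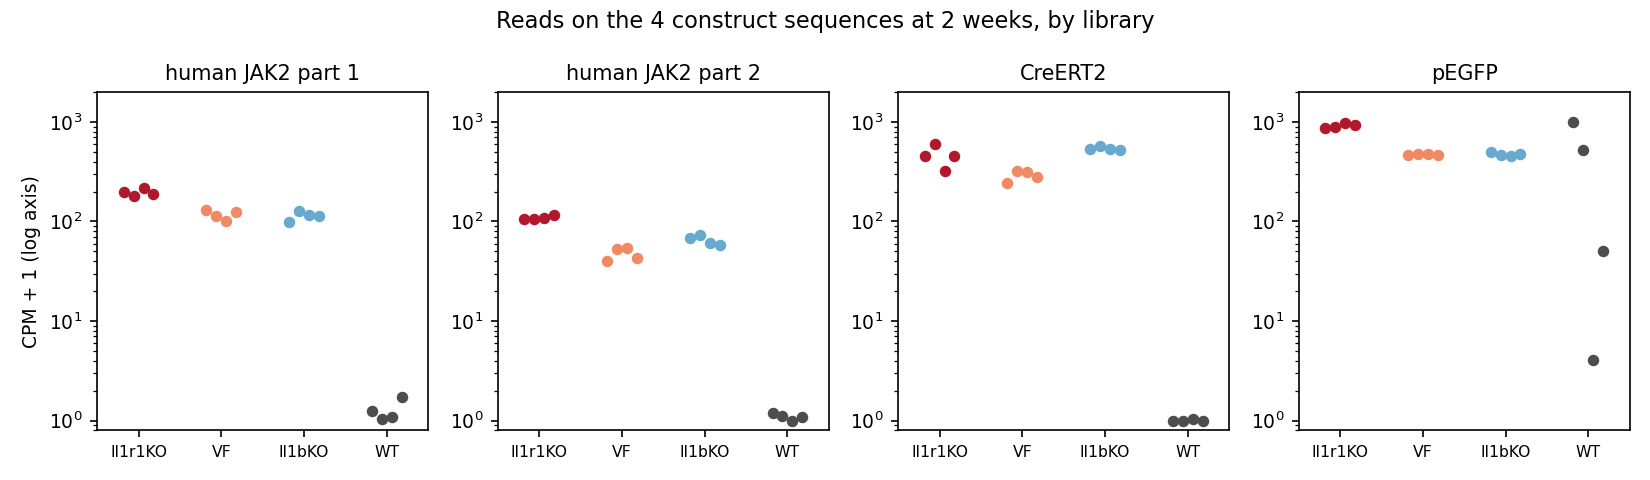
CPM + 1 on a log axis for each construct sequence (human JAK2 parts 1 and 2, CreERT2, pEGFP), with 1 point per library at 2 weeks in Il1r1KO, VF, Il1bKO and WT. The JAK2 and CreERT2 reads separate all mutant libraries from WT, whereas pEGFP in WT spans 3.03 to 998 CPM.

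Il1r1 (ENSMUSG00000026072, mm10 chr1:40225080-40317257, plus strand), the signalling receptor for IL-1, had 30.9, 15.4, 31.1 and 26.4 CPM in Il1r1KO libraries, against 20.01, 17.3, 6.09 and 16.5 CPM in WT libraries. The groups overlapped, and the libraries labelled as lacking the gene did not hold less of its RNA (log2 difference 0.79, SE 0.60, adjusted p = 0.987, edgeR quasi-likelihood test). Counts over a whole gene do not show which exons are left, so they cannot check this deletion. Il1b, the ligand, had 0.561, 0, 0.666 and 1.02 CPM in Il1r1KO libraries, against 0, 0.139, 0 and 0 CPM in WT libraries. These values rest on 16, 0, 17 and 32 reads in Il1r1KO libraries and 0, 4, 0 and 0 reads in WT libraries, and the difference did not pass (adjusted p = 0.824). Mouse Jak2, as opposed to the human construct, ran from 86.7 to 128 CPM in Il1r1KO libraries and from 77.0 to 145 CPM in WT libraries (log2 −0.17, SE 0.17, adjusted p = 0.9997).

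Of 13630 genes tested in 1 edgeR fit over all libraries, 8 passed a Benjamini-Hochberg adjusted p of 0.05 between Il1r1KO and WT, which is 0.0587% of the genes. Higher in Il1r1KO were Echdc2, Scp2, Tal1 and Igfbp4, and lower were Klhl9, Lancl1, Acadl and Mid1. In all 8 the 4 Il1r1KO libraries lay on one side of the 4 WT libraries. Echdc2 and Klhl9 were called without either pair of WT libraries. Lancl1 was not called without WT 3 and 4 (adjusted p = 0.105), Scp2 and Acadl were not without WT 1 and 2 (adjusted p = 0.232 and 0.356), and Tal1 and Igfbp4 were not without either pair. A fit of the 2 groups alone called Echdc2, Klhl9 and Lancl1. Over all genes, 331 (2.43%) had every Il1r1KO library above every WT library and 321 (2.36%) had every one below, while 433 (3.18%) were higher and 382 (2.8%) lower at an unadjusted p under 0.05. Together 815 genes passed that unadjusted threshold, which alone would give 682. The median difference over all genes was −0.00057 on the log2 scale, so changes are given on the scale of the fit.

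Echdc2 (ENSMUSG00000028601, mm10 chr4:108165437-108179308, plus strand), which encodes a mitochondrial protein of the enoyl-CoA hydratase family, showed the widest separation. Echdc2 had 731, 657, 663 and 717 CPM in Il1r1KO libraries, against 4.29, 4.81, 2.63 and 5.79 CPM in WT libraries. Every Il1r1KO library exceeded the highest WT library by a wide margin, at 158 times the WT level in the fit (log2 7.30, SE 0.25, adjusted p = 2.0e-15). Scp2 (mm10 chr4:108043839-108144998, minus strand), a sterol carrier protein and peroxisomal thiolase, lies 20.4 kb away on the opposite strand. Scp2 had 286, 311, 347 and 334 CPM in Il1r1KO libraries, against 189.9, 186, 196 and 221 CPM in WT libraries. The increase was 1.61-fold (log2 0.69, SE 0.11, adjusted p = 0.00567) with no overlap of the groups. Among the other 25 tested genes within 1 Mb of Echdc2, Scp2 alone was called, and the next lowest unadjusted p belonged to Coa7, at 45.0 CPM in Il1r1KO and 34.6 CPM in WT (log2 0.38, adjusted p = 0.785).

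The stretches of 250 bases before the RefSeq starts of these neighbours (GRCm38.p6, the mm10 assembly) are given because their genes rose together. The Echdc2 stretch is chr4:108165187-108165436 on the plus strand and the Scp2 stretch is chr4:108118548-108118797 on the minus strand. The RefSeq start of Scp2 in that table lies inside the span given above, not at the end of the gene that faces Echdc2. Capitals would mark the STAT consensus TTCNNNGAA, which reads the same on both strands, and neither stretch holds it.
Echdc2: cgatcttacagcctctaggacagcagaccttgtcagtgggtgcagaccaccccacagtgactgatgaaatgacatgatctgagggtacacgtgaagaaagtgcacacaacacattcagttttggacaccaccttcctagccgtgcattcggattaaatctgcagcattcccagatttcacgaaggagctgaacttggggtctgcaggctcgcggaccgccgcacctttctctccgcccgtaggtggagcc
Scp2: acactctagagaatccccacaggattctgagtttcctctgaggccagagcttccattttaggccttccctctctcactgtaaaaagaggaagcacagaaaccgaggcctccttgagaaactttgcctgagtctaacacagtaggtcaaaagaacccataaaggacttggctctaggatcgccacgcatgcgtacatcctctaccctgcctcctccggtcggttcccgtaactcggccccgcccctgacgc

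Tal1 (mm10 chr4:115056426-115071755, plus strand), the SCL transcription factor of stem and erythroid cells and the gene whose regulatory sequence drives the Cre, also rose. Tal1 had 88.8, 91.9, 100.8 and 94.9 CPM in Il1r1KO libraries, against 62.5, 59.4, 62.9 and 57.3 CPM in WT libraries. The increase was 1.55-fold (log2 0.64, SE 0.11, adjusted p = 0.0224), and the replicates of each group lay close together. Its call is near the threshold: leaving out any 1 of the 8 libraries gave an adjusted p of 0.0547 to 0.131, with log2 differences of 0.60 to 0.66. Igfbp4 (mm10 chr11:99041244-99054392, plus strand), a secreted binding protein for insulin-like growth factors, had 281, 286, 268 and 243 CPM in Il1r1KO libraries, against 195, 188.9, 183 and 174 CPM in WT libraries. The increase was 1.45-fold (log2 0.54, SE 0.10, adjusted p = 0.0224), and it kept its call in the fits without Il1r1KO 4 or WT 1 but not in those without any other single library (adjusted p of 0.0279 to 0.124 over all 8).

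Klhl9 (mm10 chr4:88718292-88722465, minus strand), a substrate adaptor of a CUL3 ubiquitin ligase used in mitosis, had 80.0, 61.0, 74.1 and 61.3 CPM in Il1r1KO libraries, against 129.5, 130.1, 139.6 and 127.8 CPM in WT libraries. It was 1.91 times lower in Il1r1KO (log2 −0.93, SE 0.11, adjusted p = 1.8e-04) and kept its call in every fit that left out 1 library. Gm26566, a gene named after its values were seen, overlaps Klhl9, and libraries without strand cannot tell their reads apart. Gm26566 averaged 3.67 ± 0.571 CPM in Il1r1KO and 10.9 ± 0.28 CPM in WT (log2 −1.57, adjusted p = 0.109).

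On chromosome 1, Lancl1 and Acadl fell together. Lancl1 (mm10 chr1:67000517-67038872, minus strand), which encodes a glutathione-binding protein, had 75.6, 71.5, 69.4 and 72.3 CPM in Il1r1KO libraries, against 139, 111, 141 and 131 CPM in WT libraries. It was 1.81 times lower (log2 −0.85, SE 0.13, adjusted p = 0.00567). Acadl (mm10 chr1:66830839-66863277, minus strand), the long-chain acyl-CoA dehydrogenase of mitochondrial fatty acid oxidation, had 119, 94.7, 120.4 and 115 CPM in Il1r1KO libraries, against 216, 234, 179 and 178 CPM in WT libraries. Acadl was 1.8 times lower (log2 −0.85, SE 0.14, adjusted p = 0.0105), with a gap between the groups that was wider in WT 1 and 2 than in WT 3 and 4. Acadl also lost its call without Il1r1KO 2 or without WT 2, where the adjusted p reached 0.0833.

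Mid1 (mm10 chrX:169685199-170005736, plus strand), a microtubule-associated ubiquitin ligase gene at the boundary of the mouse pseudoautosomal region, had 0.771, 0.959, 0.392 and 0.414 CPM in Il1r1KO libraries, against 25.7, 29.7, 1.53 and 4.07 CPM in WT libraries. WT 1 and 2 stood far above WT 3 and 4, although all lay above Il1r1KO (log2 −4.58, SE 0.87, adjusted p = 0.0434). Without WT 1 and 2 the log2 difference was −2.14 and was not called (adjusted p = 1), and the call was also lost without any single Il1r1KO library or without WT 1 or WT 2 (adjusted p up to 0.278). Gm21748, annotated at mm10 chrY:90838869-90839177 and also named after its values were seen, had 0.0350, 0.107, 0 and 0 CPM in Il1r1KO libraries, against 3.67, 4.05, 0.182 and 0.440 CPM in WT libraries. Its WT libraries had the same order of pairs as in Mid1, and it was not called (adjusted p = 0.206).

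**Figure D2:**
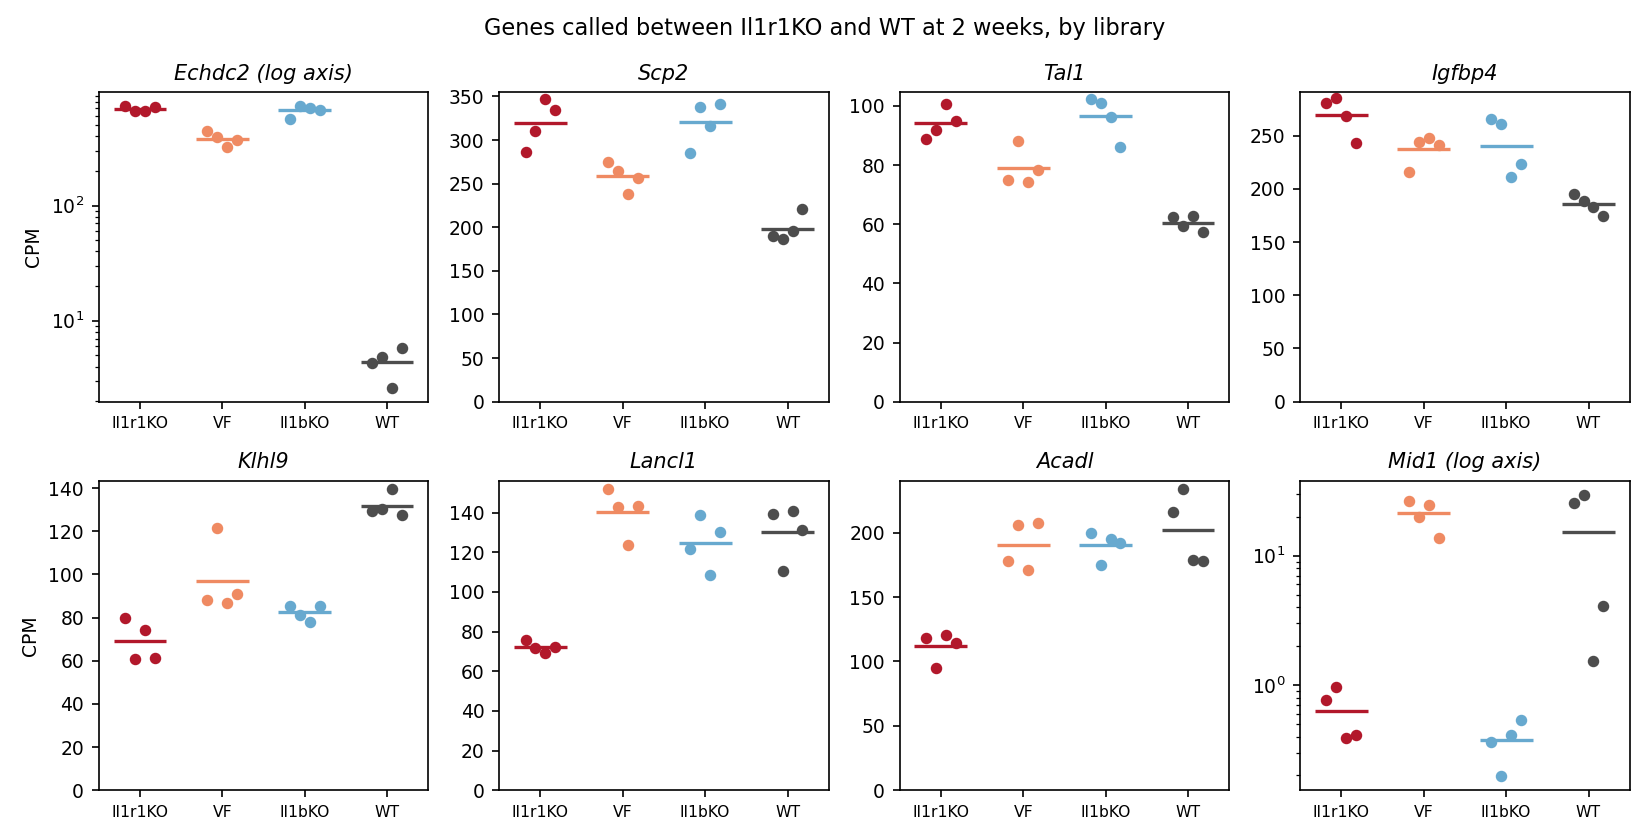
CPM of the 8 called genes, with 1 point per library and a line at each group mean, in Il1r1KO, VF, Il1bKO and WT at 2 weeks (Echdc2 and Mid1 on log axes). Lancl1 and Acadl are low in Il1r1KO alone, whereas Echdc2, Scp2, Tal1, Igfbp4 and Klhl9 lie away from WT in all 3 mutant groups.

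VF and Il1bKO were set against the same WT libraries, so their values are given side by side and not as independent repeats. Echdc2 had 445, 392, 321 and 370 CPM in VF libraries and 569, 731, 709 and 671 CPM in Il1bKO libraries. Its log2 difference from WT was 7.30 in Il1r1KO, 6.45 in VF and 7.26 in Il1bKO, and all 3 were called. Scp2 differed from WT by 0.69 in Il1r1KO, 0.38 in VF and 0.69 in Il1bKO, and Tal1 by 0.64 in Il1r1KO, 0.38 in VF and 0.67 in Il1bKO. Klhl9 differed by −0.93 in Il1r1KO, −0.44 in VF and −0.67 in Il1bKO, and Igfbp4 by 0.54 in Il1r1KO, 0.36 in VF and 0.37 in Il1bKO. Of these 4 genes, Scp2, Tal1 and Klhl9 were called in Il1bKO (adjusted p = 0.00902, 0.0137 and 0.0137), and none was called in VF. None of the 5 genes was called between Il1r1KO and VF or between Il1r1KO and Il1bKO. The nearest was Echdc2 over VF, with a log2 difference of 0.86 (adjusted p = 0.179).

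Other called genes set Il1r1KO apart from the other mutants. Lancl1 had 152, 143, 124 and 143 CPM in VF libraries and 122, 139, 109 and 130 CPM in Il1bKO libraries, all above the highest Il1r1KO library. Its log2 difference was −0.96 for Il1r1KO over VF (adjusted p = 0.00373) and −0.79 over Il1bKO (adjusted p = 0.0173). Acadl had 178, 206, 171 and 208 CPM in VF libraries and 199, 175, 195 and 192 CPM in Il1bKO libraries, again without overlap. Its log2 difference was −0.77 over VF (adjusted p = 0.0423) and −0.76 over Il1bKO (adjusted p = 0.0444). Mid1 differed from VF, in which it had 13.6 to 26.6 CPM (log2 −5.06, adjusted p = 0.0305), but not detectably from Il1bKO, in which it had 0.198 to 0.533 CPM (log2 0.74, adjusted p = 1).

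The tests of Il1r1KO against the other mutants called 7 genes over VF, which is 0.0514% of those tested, and 5 genes over Il1bKO, which is 0.0367%. Leaving out any 1 library left 1 or 2 calls over VF and 2 to 4 over Il1bKO. Beside Lancl1, Acadl and Mid1, they included Wdfy1 and Trak2 on chromosome 1, named after their values were seen. Wdfy1, an endosomal adaptor of Toll-like receptors, had 44.5, 29.9, 33.1 and 44.3 CPM in Il1r1KO libraries, 143 to 173 CPM in VF, 144 to 158 CPM in Il1bKO, and 29.6, 78.9, 179 and 146 CPM in WT libraries. WT 1 lay just below the lowest Il1r1KO library and the other WT libraries above the highest, and the difference from WT was not called (log2 −1.51, SE 0.33, adjusted p = 0.124), whereas those from VF (log2 −2.02, adjusted p = 0.0194) and from Il1bKO (log2 −2.00, adjusted p = 0.0173) were. Without WT 1 and 2 the difference from WT was −2.10 (adjusted p = 2.5e-05), and without WT 3 and 4 it was −0.52 (adjusted p = 1). Trak2, an adaptor of kinesin that carries mitochondria, had 27.2, 37.5, 36.4 and 34.8 CPM in Il1r1KO libraries, 56.6 to 62.1 CPM in VF, 63.7 to 66.1 CPM in Il1bKO, and 49.1 to 51.5 CPM in WT. Its log2 difference was −0.82 over VF (adjusted p = 0.0149), −0.93 over Il1bKO (adjusted p = 0.00206) and −0.58 over WT, where it was not called (adjusted p = 0.154). The remaining calls, also named after their values were seen, were 1700047I17Rik2 (log2 −1.11, adjusted p = 0.0495) and Gm15446 (log2 2.38, adjusted p = 0.0449) over VF, and Dock2, a Rac activator of leukocytes (log2 1.30, adjusted p = 0.00204), over Il1bKO. Dock2 averaged 344 ± 29.1 CPM in Il1r1KO, 140 ± 16.4 CPM in Il1bKO, 241 ± 30.9 CPM in VF and 283 ± 98.4 CPM in WT. It was called lower in Il1bKO than in WT (log2 −1.02, adjusted p = 0.0137). Il1r1KO was not called over WT for Dock2 (log2 0.28, adjusted p = 0.940), nor over VF.

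Lancl1, Acadl, Trak2 and Wdfy1 lie 26.7, 26.5, 18.6 and 39.4 Mb from Il1r1 on chromosome 1. Of the 163 tested genes within 20 Mb of Il1r1, 0 were called over WT by edgeR, 5 were higher and 4 lower at an unadjusted p under 0.05, and 6.75% had groups that did not overlap. Within 30 Mb, 2 of 209 genes were called, and within 40 Mb the same count stood against 283. Chromosome 4 held 4 of the 8 calls among 847 tested genes, and 3 of these were among the 242 other genes within 20 Mb of Echdc2. Over whole chromosomes, groups did not overlap for 4.12% of genes on chromosome 1 and 5.43% on chromosome 4. Over all genes tested, 0.0587% were called, and 3.18% were higher and 2.8% lower at an unadjusted p under 0.05. All Il1r1KO libraries lay above all WT libraries for 2.43% of all genes and below them for 2.36%.

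**Figure D3:**
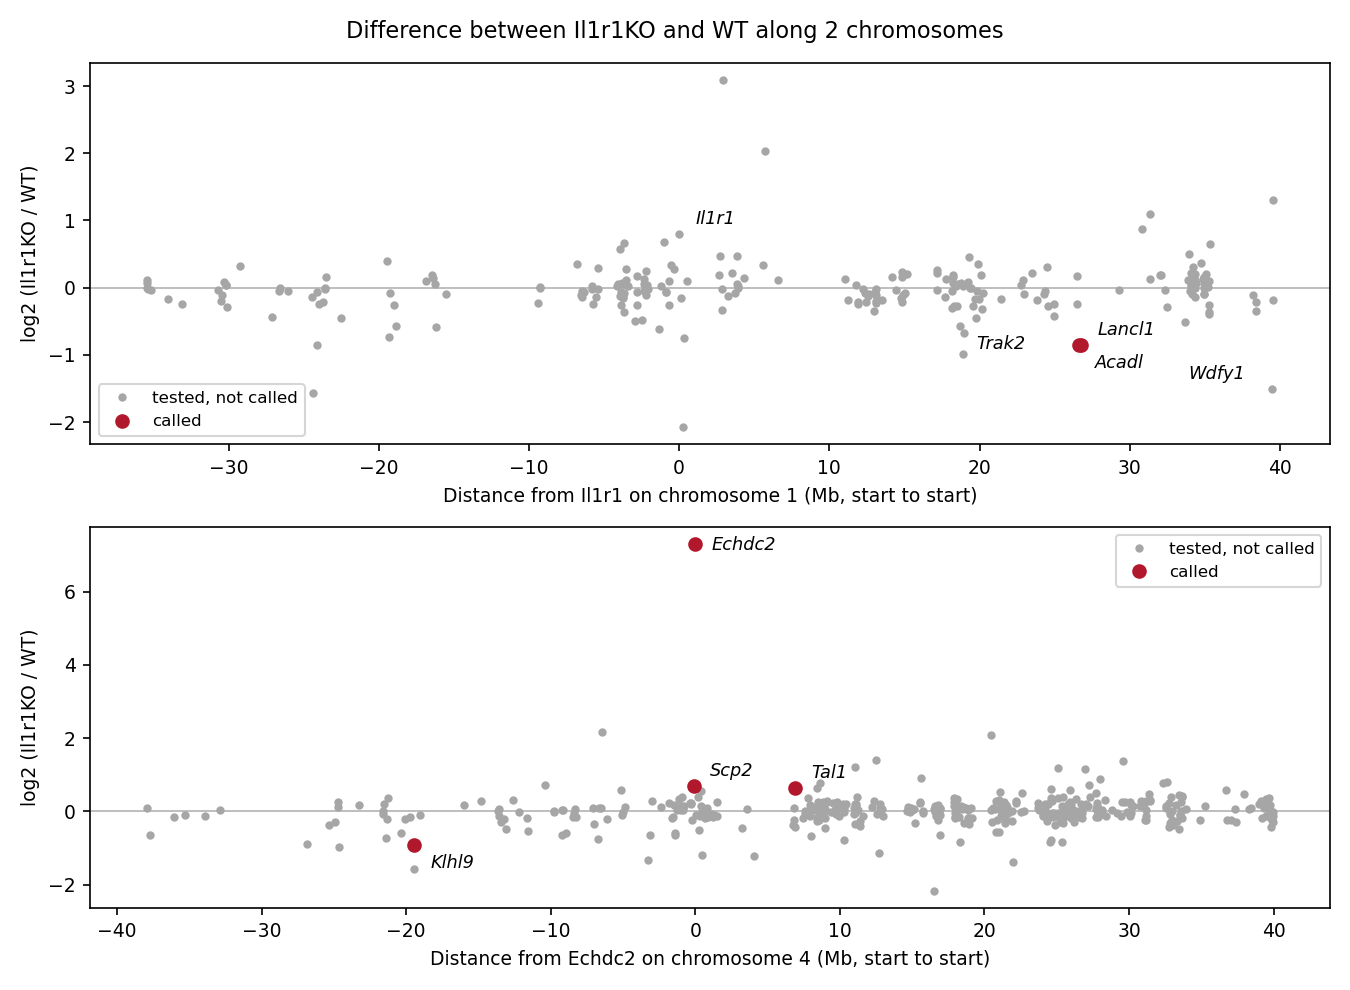
Log2 difference of Il1r1KO over WT for tested genes with a mean log2 CPM of at least 1, by distance in Mb from Il1r1 on chromosome 1 and from Echdc2 on chromosome 4. Grey points are genes that were not called and red points are called genes: Lancl1 and Acadl on chromosome 1, and Echdc2, Scp2, Tal1 and Klhl9 on chromosome 4.

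The fit shares its spread over all 25 libraries, 3 of which, at 4 weeks, differ from their replicates in TMM factor or genes detected. The factor was 0.951 in VF_4w 6 (replicates 0.991 and 1.0025) and 0.921 in Il1r1KO_4w 5 (replicates 0.991 and 0.997). Il1bKO_4w 5 had 11871 genes detected (replicates 13158 and 13039). Leaving them out was an alternative chosen with earlier results of these data known. Without these 3 the fit called 21 genes, and the 16 libraries of 2 weeks alone gave 25, with 17 genes in common. Besides 7 of the 8 genes above, 5 genes were called in both of these fits and by DESeq2 and limma voom: Itsn1, Angpt1, Gm26566, Kit and Trak2. All 5 were lower in Il1r1KO. None of the 5 was called in the fit of the 2 groups alone (adjusted p of 0.098 to 0.293). Itsn1, Kit and Trak2 each passed in 5 of 20 alternatives. Angpt1, named after its values were seen, is a ligand of the TIE2 receptor that stem cells make themselves, and it had 822, 660.2, 897 and 757 CPM in Il1r1KO libraries, against 1001, 1050.3, 1209 and 1121 CPM in WT libraries (log2 −0.48, adjusted p = 0.0788 over all libraries, 0.0407 without the 3). Itsn1, an endocytic scaffold protein, had 78.4, 75.0, 61.7 and 59.4 CPM in Il1r1KO libraries, against 203, 134, 201 and 96.5 CPM in WT libraries (log2 −1.21, SE 0.24, adjusted p = 0.0675, and 0.0166 without the 3). Plac8, named after its values were seen, a small cysteine-rich protein of myeloid cells, lay higher at 115, 68.0, 157 and 139 CPM in Il1r1KO libraries, against 10.7, 41.7, 16.8 and 26.6 CPM in WT libraries (log2 2.32, adjusted p = 0.122, and 0.00272 without the 3). In these 3 genes the groups did not overlap. Plac8 was not called by limma voom (adjusted p = 0.055) or in the fit of the 2 groups alone (0.098).

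Among the targets of STAT5, Socs2 came closest to a call. Socs2 (mm10 chr10:95385362-95417180, minus strand), a feedback inhibitor of cytokine receptors, had 263, 336, 357 and 203 CPM in Il1r1KO libraries, against 181, 97.6, 100.2 and 119 CPM in WT libraries. The groups did not overlap, at 2.32 times the WT level in the fit, but the difference missed the threshold (log2 1.22, SE 0.25, adjusted p = 0.0721). It passed in 5 of 20 alternatives: DESeq2 (adjusted p = 2.7e-04), limma voom (0.0418) and the edgeR fits without the 3 libraries of 4 weeks (0.0453), without Il1r1KO 4 (0.0422) and without WT 1 (0.0246). It did not pass in the others, among them the 16 libraries of 2 weeks (0.0614), the replicate block (0.104), the 2 groups alone (0.154) and the fits without WT 1 and 2 (0.168) or WT 3 and 4 (0.732), with log2 differences of 1.05 to 1.45 over all 20. VF libraries had 150.2 to 229 CPM and Il1bKO libraries 134 to 296 CPM of Socs2. Cish, a second feedback inhibitor, had 164, 129, 165 and 152 CPM in Il1r1KO libraries, against 88.8, 56.8, 87.7 and 147 CPM in WT libraries. WT 4 reached into the Il1r1KO range, and Cish was not called (log2 0.68, SE 0.33, adjusted p = 0.848). Pim1, a survival kinase, ran from 157 to 223 CPM in Il1r1KO and from 121 to 242 CPM in WT (log2 0.03, SE 0.24, adjusted p = 0.9997), and its sign changed with the libraries left out.

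Cish is shown for its paired STAT sites, since the promoter window of Socs2 was not used here. Of 32851 RefSeq windows of 300 bases (250 before to 50 after a start), 2726 or 8.3% hold TTCNNNGAA, as do the windows of 9.55% of genes. In the list of STAT5 targets and JAK feedback genes, 3 of the 19 genes with a window hold it (15.8%): Cish, Socs3 and Bcl6. None of the 8 called genes does. The Cish window holds the motif from the first and the twelfth base after the start, in capitals below (GRCm38.p6 chr9:107296655-107296682, plus strand). A match is a description of letters and shows no binding.
Cish: agttTTCCTGGAAagTTCTTGGAAatct

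Over the 26 tested genes of that list, 14 were higher and 12 lower in Il1r1KO, with a median log2 difference of 0.043 that was −0.067 without Il1r1KO 2. None passed in edgeR, 3 were higher and 4 lower at an unadjusted p under 0.05, and DESeq2 and limma voom each called 1. The 27 receptors, JAKs and STATs had a median of −0.0020, with 13 higher and 14 lower, and the median ran from −0.086 without Il1r1KO 2 to 0.096 without WT 1. Epor, the erythropoietin receptor, had 13.4 to 50.2 CPM in Il1r1KO libraries, against 8.64 to 21.9 CPM in WT libraries (log2 1.08, SE 0.35, adjusted p = 0.548).

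**Figure D4:**
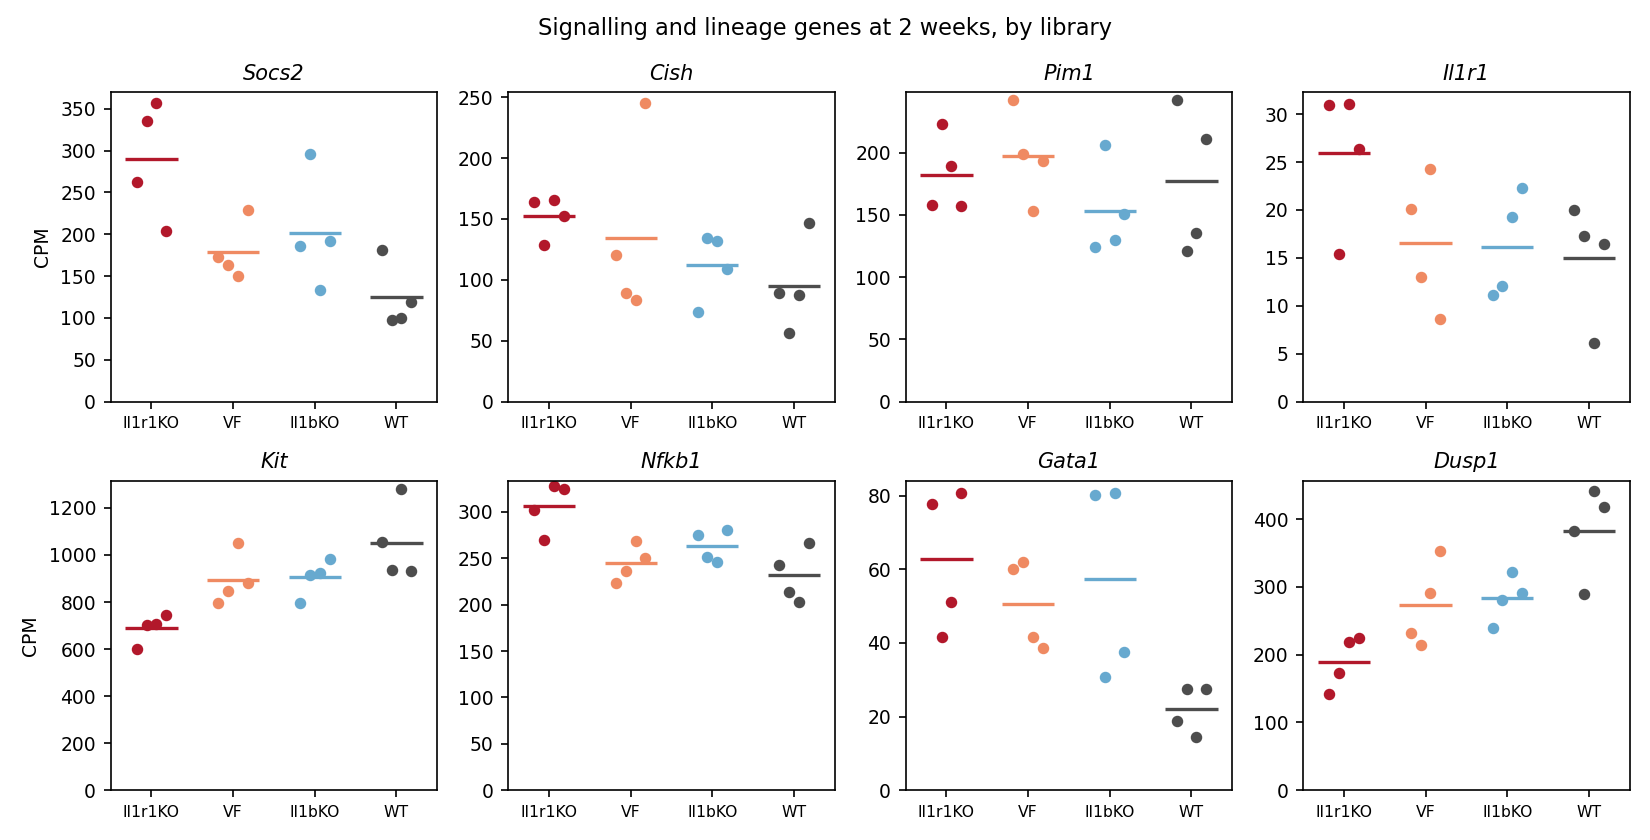
CPM of 8 genes that did not pass the test over WT, with 1 point per library and a line at each group mean, in Il1r1KO, VF, Il1bKO and WT at 2 weeks. Socs2, Nfkb1 and Gata1 lie above WT in all 4 Il1r1KO libraries and Kit and Dusp1 below it, while Pim1 overlaps.

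Stem cell genes were more often lower than higher. Of 47 tested, 31 were lower and 16 higher in Il1r1KO, with a median log2 of −0.12 against −0.00057 over all genes. The number higher was 13 without WT 3 and 4 and 20 without WT 1 and 2. Tal1 was called higher, 11 were lower and 3 higher at an unadjusted p under 0.05, and 8 had all Il1r1KO libraries below all WT libraries. Over all genes, 2.8% were lower and 3.18% higher at that p, and 2.36% had all Il1r1KO libraries below all WT libraries. The same all-gene shares are the background for the counts of the other lists. Over the same WT libraries, the stem cell list had a median log2 of −0.15 in VF and −0.064 in Il1bKO. Kit, the stem cell factor receptor, had 600.1, 702, 706 and 743 CPM in Il1r1KO libraries, against 1056, 935.5, 1283 and 932 CPM in WT libraries. Kit did not overlap between the groups but missed the threshold (log2 −0.61, SE 0.13, adjusted p = 0.124, and 0.00888 without the 3 libraries of 4 weeks). Hlf, a transcription factor of the most immature stem cells, averaged 267 ± 89.9 CPM in Il1r1KO and 437 ± 97.9 CPM in WT (log2 −0.71, SE 0.24, adjusted p = 0.593), with overlap. Mecom, a stem cell transcription factor, averaged 358 ± 40.04 CPM in Il1r1KO and 388 ± 24.3 CPM in WT (adjusted p = 0.9997). Of the 29 genes of quiescence and G1, 16 were higher, with a median of 0.081, and none was called. The cell cycle inhibitor Cdkn1c had 32.1 to 56.2 CPM in Il1r1KO libraries, against 45.2 to 88.2 CPM in WT libraries (adjusted p = 0.740).

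Megakaryocyte and platelet genes lay higher in Il1r1KO for 22 of 31 members, with a median log2 of 0.38. None passed in edgeR, 7 were higher and 2 lower at an unadjusted p under 0.05, and DESeq2 called 2 higher. Gata1, the master factor of the erythroid and megakaryocyte lineages, had 77.9, 41.5, 51.2 and 80.7 CPM in Il1r1KO libraries, against 18.7, 27.4, 14.5 and 27.6 CPM in WT libraries. All Il1r1KO libraries lay above WT, but Gata1 missed the threshold (log2 1.51, SE 0.37, adjusted p = 0.215). Gata1 averaged 50.6 ± 12.2 CPM in VF and 57.3 ± 26.9 CPM in Il1bKO. Pf4, a platelet chemokine, averaged 91.3 ± 37.1 CPM in Il1r1KO and 26.1 ± 13.8 CPM in WT, and Itga2b, which encodes CD41, averaged 203 ± 92.0 CPM in Il1r1KO and 89.6 ± 34.3 CPM in WT (adjusted p = 0.733 for Pf4 and 0.589 for Itga2b). Nfe2, a member that went the other way, averaged 568 ± 73.8 CPM in Il1r1KO and 723 ± 58.1 CPM in WT. Its groups overlapped and it was not called (log2 −0.35, SE 0.090, adjusted p = 0.324). The summed CPM of the list did not separate the groups, at 3338 to 5565 in Il1r1KO and 4092 to 5154 in WT. Without WT 3 and 4 the median was 0.18, and without WT 1 and 2 it was 0.49. Over the same WT libraries, the median of this list was 0.11 in VF and 0.050 in Il1bKO.

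Markers of other cells were examined for the same libraries. Of 41 erythroid genes 27 were higher, with a median of 0.073 (0.046 without Il1r1KO 1 and 0.20 without Il1r1KO 3). None passed in edgeR, and 7 were higher and 1 lower at an unadjusted p under 0.05. The erythroid gene Klf1 averaged 13.9 ± 6.04 CPM in Il1r1KO and 6.37 ± 2.42 CPM in WT, with overlap (log2 1.12, adjusted p = 0.824). The haemoglobin gene Hba-a1 went the other way, at 6.72 ± 5.05 CPM in Il1r1KO and 14.3 ± 9.65 CPM in WT. Its groups also overlapped (log2 −1.09, SE 1.27, adjusted p = 0.9997). Of 32 tested neutrophil and monocyte genes 23 were higher, with a median of 0.61, and 24 were higher without WT 3 and 4 and 22 without WT 1 and 2. Without Il1r1KO 2 the median was 0.32, and over the fits that left out 1 library the count ran from 19 to 24. Over the same WT libraries, the median of these genes was 0.67 in VF and 0.29 in Il1bKO. Their summed CPM ran from 920 to 1583 in Il1r1KO and from 1035 to 1461 in WT. S100a9, a calcium-binding protein of neutrophils, had 1.47, 5.86, 1.57 and 0.669 CPM in Il1r1KO libraries, against 0.291, 0.277, 0.109 and 0.0366 CPM in WT libraries. S100a9 did not overlap but stayed at a few CPM (log2 3.71, adjusted p = 0.267). Elane and Mpo, granule enzymes of granulocyte progenitors, varied between replicates: Elane ran from 0.574 to 52.1 CPM in Il1r1KO libraries and from 0 to 8.22 CPM in WT libraries, and Mpo from 0.478 to 137 CPM in Il1r1KO libraries and from 0 to 28.0 CPM in WT libraries. The defining markers of B cells (Cd79a), T cells (Cd3e), macrophages (C1qa, Adgre1) and endothelium (Cdh5) were not tested here. The tested B lineage genes summed to 23.6 to 60.4 CPM in Il1r1KO and 34.6 to 52.3 CPM in WT, and T and NK genes to 124 to 150.1 CPM in Il1r1KO and 105 to 164 CPM in WT. Mast cell and basophil genes were higher in 3 of 12, with Cpa3 at 2.05 ± 1.06 CPM in Il1r1KO and 2.49 ± 1.38 CPM in WT. Macrophage and dendritic genes were higher in 8 of 16, with a median of 0.062 that was −0.10 without Il1r1KO 1, and endothelial and stromal genes in 8 of 14, and none of these lists held a call. The part of such cells in the results above was not tested.

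The IL-1 pathway showed no called gene. Of its 25 tested members 10 were higher and 15 lower in Il1r1KO, with a median log2 of −0.038. The median turned sign with 1 library, at −0.11 without Il1r1KO 1 and 0.014 without WT 1, and the number higher ran from 8 to 14. Among the members, 1 was higher and 0 lower at an unadjusted p under 0.05. DESeq2 and limma voom called 0. Il1rap, the shared co-receptor, had 15.8, 32.1, 22.8 and 37.9 CPM in Il1r1KO libraries, against 38.1, 40.1, 40.1 and 33.0 CPM in WT libraries (log2 −0.48, SE 0.25, adjusted p = 0.884). NF-kB subunits and targets numbered 13 higher and 16 lower of 29, with a median of −0.14. Without Il1r1KO 1 the median was −0.011, and with 1 library left out the number higher ran from 8 to 14. Nfkb1, a subunit of NF-kB, had 302, 269, 328 and 325 CPM in Il1r1KO libraries, against 243, 214, 203 and 266 CPM in WT libraries. Its groups lay apart by a narrow gap (log2 0.40, SE 0.11, adjusted p = 0.324). The NF-kB target Ccl4, a chemokine, had 4.02 to 11.004 CPM in Il1r1KO libraries, against 9.07 to 31.8 CPM in WT libraries (log2 −1.22, SE 0.38, adjusted p = 0.542).

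Immediate early genes, which respond within minutes to signals and to handling of cells, were lower for 19 of 27 members, with a median of −0.13. None passed in edgeR, 4 were lower and 0 higher at an unadjusted p under 0.05, and DESeq2 and limma voom called 1 each. Over the same WT libraries, the median of this list was −0.23 in VF and −0.12 in Il1bKO. Dusp1, a phosphatase that shuts off MAP kinases, had 142, 173, 219 and 224 CPM in Il1r1KO libraries, against 382, 289, 442 and 418 CPM in WT libraries. The groups did not overlap, and Dusp1 missed the threshold (log2 −1.01, SE 0.24, adjusted p = 0.215). Interferon gamma and MHC genes were lower for 26 of 35 members, with a median of −0.15, and the median ran from −0.24 without WT 3 and 4 to −0.029 without WT 1 and 2. The median over WT was −0.033 in VF and 0.032 in Il1bKO. Type I interferon genes were higher for 27 of 48, with a median of 0.066. That direction turned with the WT libraries: 19 were higher without WT 3 and 4 (median −0.13) and 37 without WT 1 and 2 (median 0.27).

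Genes of DNA replication lay slightly higher. Of 46 S phase genes 44 were higher in Il1r1KO, with a median log2 of 0.23, none was called, and 3 were higher and 0 lower at an unadjusted p under 0.05 (DESeq2 and limma voom called 0). Mcm2, a subunit of the replicative helicase, had 260.4, 264, 301 and 312 CPM in Il1r1KO libraries, against 105, 257, 219.6 and 210.2 CPM in WT libraries. WT 1 was the lowest by far (log2 0.52, SE 0.22, adjusted p = 0.769). The summed S phase level was 5019 to 5690.1 CPM in Il1r1KO and 2883 to 5347 CPM in WT. Without WT 1, 33 of the 46 were higher and the median was 0.071. Over the same WT libraries, the S phase median was 0.097 in VF and 0.20 in Il1bKO. For G2 and M phase, 41 of 55 were higher (median 0.087), and without WT 1 the count was 17 and the median −0.069.

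Nuclear genes of oxidative phosphorylation were higher for 53 of 55 members, with a median log2 of 0.14, and the count stayed between 51 and 54 when any 1 library was left out. None was called, 5 were higher and 0 lower at an unadjusted p under 0.05, and DESeq2 and limma voom called 0. Atp5b, a subunit of ATP synthase, had 1388, 1560.4, 1325 and 1535 CPM in Il1r1KO libraries, against 981, 1295, 1086 and 1371 CPM in WT libraries. WT 4 overlapped the Il1r1KO range (log2 0.30, SE 0.097, adjusted p = 0.586). All 12 mitochondrially encoded genes were instead lower, with a median of −0.21, again with no call and 2 lower at an unadjusted p under 0.05. Over the same WT libraries, their median was −0.12 in VF and −0.23 in Il1bKO. The median of the nuclear list was 0.079 in VF and 0.048 in Il1bKO. The subunit mt-Co1 had 2118, 1393, 1709 and 1356 CPM in Il1r1KO libraries, against 2345, 2370.4, 2540 and 1624 CPM in WT libraries, where WT 4 lay among the Il1r1KO values (log2 −0.43, SE 0.14, adjusted p = 0.586). Fatty acid oxidation held 2 called genes of 34, Echdc2 higher and Acadl lower, where 0.0587% of all genes were called. Echdc2 was among the genes always named, and members of the list were chosen with earlier results of these data known. The count is therefore no test of the pathway. Of the 34 genes, 19 were higher and 15 lower. The median of this list, 0.025, was −0.011 without Il1r1KO 1.

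Cholesterol synthesis genes were lower for 18 of 25 members, with a median of −0.19 and 5 lower at an unadjusted p under 0.05. None passed in edgeR, and DESeq2 and limma voom called 0. Over the same WT libraries, the median of this list was 0.019 in VF and −0.13 in Il1bKO. Hmgcs1, an early enzyme of the pathway, had 78.6, 74.2, 68.1 and 87.6 CPM in Il1r1KO libraries, against 119.6, 85.1, 133 and 111 CPM in WT libraries (log2 −0.54, SE 0.18, adjusted p = 0.593). WT 2 lay just under the highest Il1r1KO library. MYC and ribosome biogenesis genes were higher for 31 of 41 (median 0.11), glycolysis for 13 of 23 (0.071), the unfolded protein response for 17 of 27 (0.13) and p53 targets for 15 of 26 (0.062), with no call in any of them. These medians moved with single libraries: without WT 1 the MYC median was 0.011, with 23 higher, and that of the unfolded protein response was 0.037. Glycolysis was at −0.0077 without Il1r1KO 2, and p53 targets at −0.029 without WT 3. Myc itself had 254 to 588 CPM in Il1r1KO libraries and 496 to 586 CPM in WT libraries (log2 −0.37, adjusted p = 0.774).

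**Figure D5:**
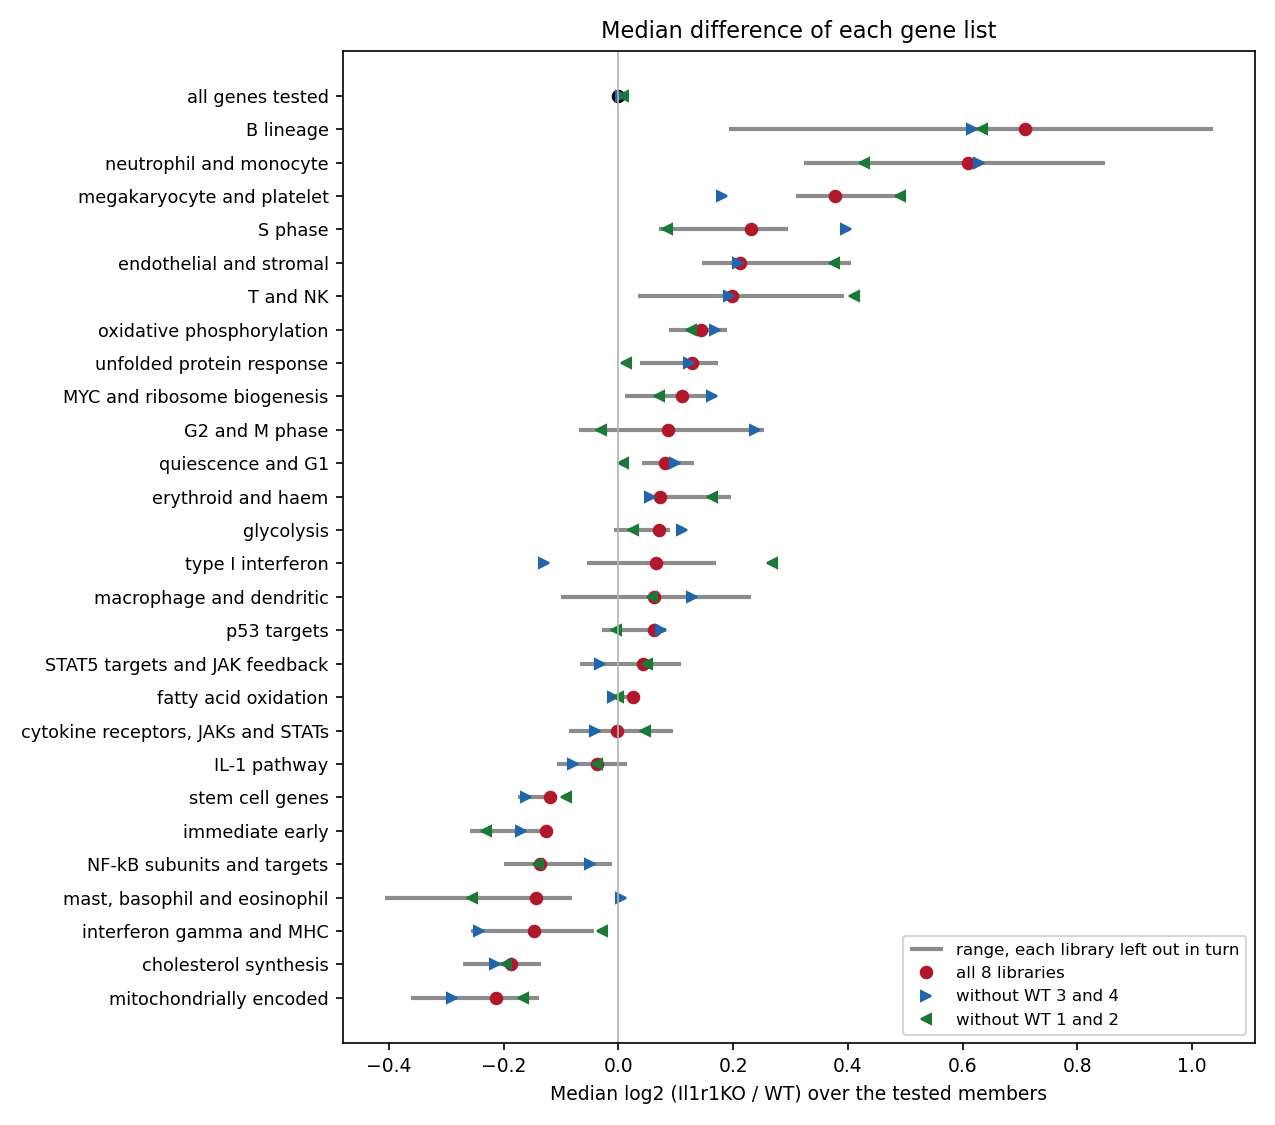
Median log2 difference of Il1r1KO over WT over the tested members of each of 27 gene lists and over all genes, with all 8 libraries (circles), without WT 3 and 4 or WT 1 and 2 (triangles), and the range when each library is left out in turn (grey bars). The lists of the IL-1 pathway, receptors with JAKs and STATs, STAT5 targets, mast cells, macrophages, type I interferon, G2 and M phase, fatty acid oxidation, glycolysis and p53 targets cross 0 between these fits, whereas oxidative phosphorylation stays above 0 and mitochondrially encoded genes stay below it.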

How the data were processed

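Gene-level read counts of 25 libraries were used as the authors deposited them, for 13641 genes and 4 construct sequences. Per the labels' protocols, RNA of sorted cells was isolated with PicoPure and unstranded libraries were made with SMART-Seq v4, and the 2 times (2 and 4 weeks) were processed as 2 batches, so the groups compared share a batch. STAR 2.7.10a, featureCounts, FastQC 0.11.5, R 4.2.2 and the build mm10 appear in the submitters' processing notes. The deposited genes had at least 32 counts in 1 library. Each column was assigned by the genotype and number in its name. Symbols and positions are those of GENCODE vM21, found for 13623 genes, and promoter sequences are those of RefSeq.

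In R 4.3.3, the robust quasi-likelihood test of edgeR 4.0.16, after filterByExpr and TMM scaling, covered 13630 genes with the 7 combinations of genotype and time fitted together, with Benjamini-Hochberg adjustment over all genes. The common dispersion was 0.169, a coefficient of variation of 0.411. CPM and SD are over libraries, and log2 differences, SE and folds are those of the fit. Constructs were compared on log2(CPM + 1) by exact permutation. Results were recomputed with upper-quartile and RLE factors, with limma 3.58.1 (voom with quality weights), with DESeq2 1.42.0, with other filters, with other sets of libraries, with a replicate block and without each library in turn. The pipeline was tested on simulated data. Same-numbered libraries did not deviate together.

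Genes named were Il1r1, Il1b, Jak2, Socs2, Cish, Pim1 and Echdc2, then up to 15 called genes per direction, called members of 27 gene lists, and up to 3 members of lowest p of other lists. Lists, members and alternatives were chosen with earlier results of these data known. Reads over single exons of Il1r1 are not analysed here. With 4 libraries a group, the spread between libraries limits precision more than counting error does for genes above a few CPM. The results of some genes are not reported here.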

Additional observations from a re-analysis of the deposited data

Results flagged for a closer look

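The difference of Il1r1KO from WT itself differed from that of another mutant group for the 7 genes called over VF and the 5 called over Il1bKO, by the edgeR test between the mutants. Lancl1 was lower in Il1r1KO than in VF by log2 −0.96 and than in Il1bKO by −0.79. Acadl was lower by −0.77 over VF and −0.76 over Il1bKO, Wdfy1 by −2.02 over VF and −2.00 over Il1bKO, and Trak2 by −0.82 over VF and −0.93 over Il1bKO. Over VF alone, Mid1 was called lower by −5.06, 1700047I17Rik2 lower by −1.11 and Gm15446 higher by 2.38, and over Il1bKO alone Dock2 was called higher by 1.30. Dock2 was itself called lower in Il1bKO than in WT, and was not called between Il1r1KO and WT. Their adjusted p-values stand in the report, where these genes were picked with their values known.

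Of 178 sets of 4 libraries examined, 9 held a library far from its replicates by the 95% limit of Dixon's ratio, where chance gives about 1 in 20. In Il1r1KO 3, E2f4, a repressor of cell cycle genes, stood at 153 CPM (other Il1r1KO libraries 177 to 180.2) and Lepr, the leptin receptor, at 15.04 CPM (others 1.85 to 4.03). In Il1r1KO 2, Ngp, a neutrophil granule protein, stood at 7.07 CPM (others 0.159 to 0.911). Fcer1a, an IgE receptor chain, was at 4.07 CPM in Il1r1KO 1 (others 0.637 to 1.02), as was Thy1 at 1.05 CPM (others 0.675 to 0.733). Among WT libraries, Ldhb was at 91.1 CPM in WT 4 (others 113 to 116), Ctss, a lysosomal protease, at 1.90 CPM in WT 3 (others 4.84 to 5.30), Il1b at 0.139 CPM in WT 2 and CreERT2 at 0.0365 CPM in WT 3 (others 0 for both). For Il1b and CreERT2 the ratio is 1 whatever the value, since the other WT libraries held 0. These flags rest on 4 reads of Il1b and 1 read of CreERT2.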

How the results depend on the processing

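Against 4 genes higher and 4 lower over WT, DESeq2 called 26 and 20, limma voom 13 and 11, the 16 libraries of 2 weeks 12 and 13, the fit without VF_4w 6, Il1bKO_4w 5 and Il1r1KO_4w 5 10 and 11, and the 2 groups alone 1 and 2. Without WT 3 and 4, 2 were higher, and without WT 1 and 2, 1. Without 1 library each, 2 to 4 were higher and 2 to 8 lower. Over VF, against 7 calls, DESeq2 gave 20, limma voom 21, the libraries of 2 weeks 12, the groups alone 11, and leaving out 1 library 1 to 2. Over Il1bKO, against 5, DESeq2 gave 16, limma voom 10, the fit without the 3 libraries of 4 weeks 8, and leaving out 1 library 2 to 4. With the replicate number as a block on the 16 libraries, 10 were higher and 9 lower over WT, 10 called over VF and 8 over Il1bKO. Correlations of same-numbered libraries were −0.012, −0.13, −0.082 and −0.094, and 0 of 4 Il1r1KO libraries correlated best with its own number, so the samples share only a number. Factors and filters changed no call of the 8 genes. The cause of the other changes was not tested. Pim1 reversed without WT 3 and 4 (log2 −0.0030) and ranged from −0.11 to 0.22 without 1 library. Over 85 named genes and all settings, 1613 results kept direction and side, 36 lost and 30 gained a call, and 4, all of Pim1, turned sign.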
